A study of Mus musculus with 2 samples.

Results

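The genes described here encode the nuclear subunits of oxidative phosphorylation, the chain of inner mitochondrial membrane complexes that turns the electrons of NADH and succinate into ATP. Complex I (NADH dehydrogenase) and complex II (succinate dehydrogenase) feed electrons to ubiquinone, complex III (cytochrome bc1) passes them to cytochrome c, complex IV (cytochrome c oxidase) hands them to oxygen, and complex V (ATP synthase) uses the proton gradient to make ATP. Complexes I, III, IV and V also hold subunits encoded by mitochondrial DNA, so their assembly needs products of 2 genomes. Lymphocytes that leave rest and divide are known to enlarge their mitochondrial network, and long-lived plasma cells are known to rely on respiration.

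Members were chosen by gene symbol and total UMIs, from the families Nduf (a, b, c, s and v series), Sdh, Uqcr, Cox4 to Cox8 and Atp5, where at least 50 UMIs (unique molecular identifiers, counted transcripts) were found over both libraries. Of 85 matching symbols among 32285 genes, 80 passed: 36 of complex I, 4 of complex II, 8 of complex III, 15 of complex IV and 17 of complex V. Ndufa4 was placed in complex IV, where its protein is known to reside. The 2 members nearest the minimum were Cox7a1 with 446 UMIs and Cox6b2 with 660 UMIs, and the nearest symbols outside it were Cox4i2 with 42 UMIs and Ndufa4l2 with 36 UMIs. Cox7b2 had 6 UMIs, and Cox8b and Cox8c had 0. All 80 genes are annotated as protein coding except Ndufb1-ps, whose transcript is annotated as a long non-coding RNA from a bidirectional promoter. Ndufab1, the acyl carrier subunit of complex I, does not match the symbol rule and is given separately where named.

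The cells were live leukocytes (CD45+CD31-) sorted from hand-picked pancreatic islets of 12-week-old female NOD mice, which are prone to autoimmune diabetes, and of NOD.Cxcl16-/- mice, which carry the same background and are labelled as lacking the chemokine gene Cxcl16. Each group is 1 droplet single-cell library, and the number of animals behind each is not stated. Deposited totals were 93553185 UMIs over 13859 barcodes for WT NOD and 98681133 UMIs over 10554 barcodes for the library labelled NOD.Cxcl16-/-. With 1 library per group no difference can be tested, no p-value is given, and the 95% intervals below cover counting error only.

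In the library labelled NOD.Cxcl16-/-, Cxcl16 itself had 10062 UMIs (102 CPM, counts scaled to 1000000 UMIs), against 9668 UMIs (103 CPM) in the WT NOD library. The level of the targeted gene therefore goes against the label, and no difference between the libraries is ascribed to genotype. A 3' read outside the deleted part would not check the label, and the extent of the deletion is not given in the sources used here. The libraries shared 45 barcodes. Classes of cells were gated on fixed marker genes and are called "gated" for that reason. The summed T cell markers Cd3d, Cd3e and Cd3g were at 2836 to 3489 CPM in the CD8, CD4, Treg and gamma-delta T gates and at 10.8 to 164 CPM in all other gates, and the summed B cell markers were at 4886 to 5205 CPM in the B gate. The WT NOD ILC2 gate of 25 cells also held mast cell or basophil markers at 1059 CPM.

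The 80 genes made up 2.35% of all UMIs of WT NOD (2202240 UMIs) and 2.22% (2189875 UMIs) in the library labelled NOD.Cxcl16-/-. Promoters of 65 of the 80 genes, 300 bases each from 250 before to 50 after the start site, were found in RefSeq for mouse build GRCm38.p6. A match to GCGC and TGCGC spaced by 1 base, the core letters bound by NRF1, a known activator of respiratory genes, was present in 16 of these 65 promoters (24.6%) and in 4.78% of all 27025 promoters of that length. A match to CCGGAAG, the ETS family core, was present in 16 (24.6%, against 9.12%), a match to AAGATGGC, a YY1 core, in 8 (12.3%, against 2.88%), and a match to the E-box CACGTG in 5 (7.69%, against 7.24%). Both strands were searched, and matches of different motifs could overlap. The median GC content was 57.3% for these promoters and 52.7% for all. Such a match is a description of letters and not a binding site.

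Promoters of 6 genes whose values stand at the ends of the cycling comparison below are shown, in the direction of transcription and in lower case, with motif matches in capitals. The genes Cox5a, Ndufc1 and Uqcr11 were among those highest in cycling against non-cycling cells, and Cox7a2l, Uqcrh and Sdha were among those lower or nearly level. The windows are Cox5a chr9:57520982-57521281 (+), Ndufc1 chr3:51408906-51409205 (-), Uqcr11 chr10:80406772-80407071 (-), Cox7a2l chr17:83514284-83514583 (-), Uqcrh chr4:116075021-116075320 (-) and Sdha chr13:74350191-74350490 (-).
Cox5a: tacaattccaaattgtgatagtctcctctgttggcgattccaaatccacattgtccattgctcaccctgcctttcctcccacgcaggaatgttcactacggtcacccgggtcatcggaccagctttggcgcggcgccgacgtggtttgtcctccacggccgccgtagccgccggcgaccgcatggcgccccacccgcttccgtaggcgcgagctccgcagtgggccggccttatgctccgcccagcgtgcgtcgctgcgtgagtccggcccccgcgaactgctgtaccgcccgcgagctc
Ndufc1: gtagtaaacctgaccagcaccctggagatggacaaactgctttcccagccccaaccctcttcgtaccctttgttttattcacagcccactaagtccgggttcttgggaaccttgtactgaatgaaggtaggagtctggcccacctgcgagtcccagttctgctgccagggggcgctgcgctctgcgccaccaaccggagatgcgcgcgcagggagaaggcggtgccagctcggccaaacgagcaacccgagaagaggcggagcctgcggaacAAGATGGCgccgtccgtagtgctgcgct
Uqcr11: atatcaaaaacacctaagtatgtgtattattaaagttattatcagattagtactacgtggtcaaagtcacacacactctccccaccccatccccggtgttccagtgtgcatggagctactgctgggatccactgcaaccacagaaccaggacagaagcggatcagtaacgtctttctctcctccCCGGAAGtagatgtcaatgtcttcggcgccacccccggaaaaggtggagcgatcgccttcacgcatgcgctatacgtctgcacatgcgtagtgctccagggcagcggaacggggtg
Cox7a2l: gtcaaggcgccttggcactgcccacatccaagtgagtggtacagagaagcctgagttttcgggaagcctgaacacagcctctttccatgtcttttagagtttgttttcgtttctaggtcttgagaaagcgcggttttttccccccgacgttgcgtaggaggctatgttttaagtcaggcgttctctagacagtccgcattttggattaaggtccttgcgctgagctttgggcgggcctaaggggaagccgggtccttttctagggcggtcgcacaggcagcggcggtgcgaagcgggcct
Uqcrh: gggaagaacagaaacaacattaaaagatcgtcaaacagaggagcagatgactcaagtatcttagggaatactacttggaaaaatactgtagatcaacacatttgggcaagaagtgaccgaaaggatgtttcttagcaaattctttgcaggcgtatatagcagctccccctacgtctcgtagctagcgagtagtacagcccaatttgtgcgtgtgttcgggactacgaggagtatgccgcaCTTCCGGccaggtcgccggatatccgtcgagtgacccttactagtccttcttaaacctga
Sdha: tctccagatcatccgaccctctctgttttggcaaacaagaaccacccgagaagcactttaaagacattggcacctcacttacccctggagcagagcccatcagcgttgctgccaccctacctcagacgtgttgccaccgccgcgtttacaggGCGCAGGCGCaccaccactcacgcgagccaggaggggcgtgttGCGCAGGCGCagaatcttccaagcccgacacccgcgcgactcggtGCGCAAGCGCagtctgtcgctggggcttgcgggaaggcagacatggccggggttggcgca
The Sdha window holds 3 NRF1 matches, Ndufc1 holds a YY1 match, and Uqcr11 and Uqcrh each hold an ETS match. The Cox5a and Cox7a2l windows hold none of the 4 motifs, although these genes lay at opposite ends of the comparison. The letters searched therefore did not separate the higher genes from the lower ones among these 6.

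Summed over the 80 genes, the level followed the class of cell and, within lymphocytes, the cycling state. Cells were called cycling where 3 or more of 10 cycling genes (Mki67, Top2a, Birc5, Cdk1, Ccna2, Tpx2, Cdca8, Nusap1, Pclaf and Rrm2) had a UMI, and non-cycling where none had. Non-cycling T-gated cells stood between 19944 and 21730 CPM, non-cycling B-gated cells at 16790 CPM (WT NOD) and 16632 CPM (library labelled NOD.Cxcl16-/-), and non-cycling plasma cell-gated cells lowest, at 12000 and 11694 CPM. That order depended on the denominator. A reduced denominator left out immunoglobulin, T-cell receptor, mitochondrial, ribosomal and haemoglobin genes. With it, non-cycling plasma cell-gated cells stood at 33392 and 32507 CPM. Non-cycling CD8 T-gated cells then stood at 32698 and 30658 CPM, and non-cycling B-gated cells at 25615 and 24789 CPM. Over all states, CD8 T-gated cells, many of them cycling, stood at 26749 and 25255 CPM. Among myeloid classes, also taken over all states, macrophage-gated cells stood at 25457 and 22242 CPM, cDC1-gated cells at 28488 and 25807 CPM, and classical monocyte-gated cells at 28612 CPM (16 cells) and 24996 CPM (17 cells). The intervals of cDC1-gated and monocyte-gated cells overlapped in both libraries (in WT NOD, 28149 to 28831 and 27764 to 29480 CPM), so that their order is not resolved. Migratory DC-gated cells were the lowest of the DC gates, at 20303 and 19195 CPM.

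**Figure D1:**
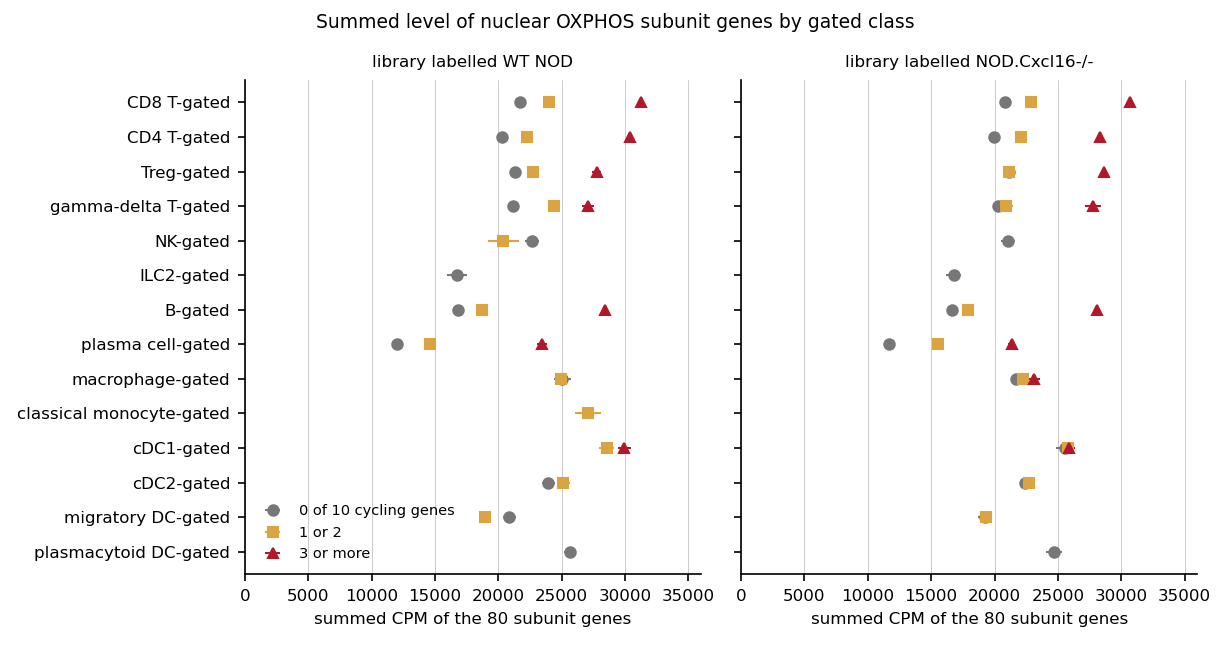
Summed CPM of the 80 subunit genes (x axis) in each gated class (rows), one panel per library, for cells with 0, 1 or 2, and 3 or more of the 10 cycling genes; lines are 95% Poisson intervals, and pools under 10 cells are left out. Cycling CD8 T-gated cells sit at 31235 and 30723 CPM, right of the non-cycling ones at 21730 and 20855 CPM, while the cDC1 gate of the second library sits at 25903 CPM (cycling) and 25548 CPM (non-cycling).

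The first comparison asks how the genes differ between cycling and non-cycling cells of the same class in the same library. In CD8 T-gated cells of the WT NOD library, the sum was 31235 CPM in 616 cycling cells and 21730 CPM in 1414 non-cycling cells, a ratio of 1.44 (95% interval 1.43 to 1.45). In the library labelled NOD.Cxcl16-/- it was 30723 CPM in 260 cells and 20855 CPM in 938 cells, a ratio of 1.47 (1.46 to 1.48). All 5 complexes took part in the difference: in WT NOD, cycling against non-cycling, complex I summed to 8228 against 5909 CPM, complex II to 415 against 264 CPM, complex III to 3056 against 2366 CPM, complex IV to 9168 against 6025 CPM, and complex V to 10368 against 7166 CPM.

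Genes were called higher or lower at 1.5-fold or more, on the log2 scale of CPM + 1, among those with at least 20 expected UMIs. Of 79 subunit genes that passed this filter in WT NOD CD8 T-gated cells, 36 were called higher, where 17.7% of all genes were, and 1 was called lower, where 16.1% were. In the other library 40 of 77 were higher, where 19.1% of all genes were, and 1 was lower, where 19.0% were. The median log2 ratio was 0.53 and 0.61 over the members, and -0.03 and -0.04 over all genes. By complex, the higher calls in the WT NOD and the other library numbered 15 and 18 of 36 for complex I, 2 and 2 of 4 for complex II, 4 and 4 of 8 for complex III, 7 of 14 and 7 of 12 for complex IV, and 8 and 9 of 17 for complex V. With the reduced denominator the ratios of sums in CD8 T-gated cells were smaller, at 1.34 and 1.39. The higher calls were then 29 and 33, where 15.1% and 17.0% of all genes were. Lower calls were 1 in each library, where 21.2% and 23.2% were.

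Cycling cells were deeper, with median totals of 12526.5 and 17274 UMIs against 4413 and 5032, and depth moved with the level among non-cycling cells too. In the library labelled NOD.Cxcl16-/-, non-cycling CD8 T-gated cells were at 19372 CPM under 4000 UMIs and at 23808 CPM from 16000 UMIs on. Cells were also set in bins of depth, by class (CD8 T, CD4 T and B gates) and library. The cycling sum was above the non-cycling sum in all 24 pairs. The intervals overlapped in the closest pair, CD4 T-gated cells of the library labelled NOD.Cxcl16-/- between 4000 and 8000 UMIs. There 9 cycling cells were at 20312 CPM (19124 to 21554) and 470 non-cycling cells at 19466 CPM (19292 to 19640). Depth still differed within some bins. From 16000 UMIs on, cycling and non-cycling WT NOD B-gated cells had medians of 34766 and 17977 UMIs. Under 4000 UMIs, those of WT NOD CD8 T-gated cells were 2196 and 2206. The part of depth in these gaps was not tested. Among cells under 4000 UMIs in WT NOD, 156 cycling CD8 T-gated cells at 31091 CPM stood above 597 non-cycling ones at 21976 CPM. Restricted to cells with 4000 to 16000 UMIs, an alternative chosen after seeing the data, 33 and 23 of 77 genes were called higher in CD8 T-gated cells, where 17.5% and 19.0% of all genes were. With barcodes above 2 times the median UMIs of their class left out as possible doublets, 42 of 77 (257 cycling cells; 18.1% of all genes) and 16 of 74 (63 cycling cells; 19.2%) were, the latter a share close to that of all genes.

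The sum was graded by the number of cycling genes seen, with its largest step in CD8 T-gated cells between 1 or 2 and 3 to 5 genes. In WT NOD CD8 T-gated cells it was 21730 CPM with 0 genes, 23978 with 1 or 2, 30860 with 3 to 5, 31388 with 6 to 8, and 31263 with 9 or 10. In the other library the same steps gave 20855, 22889, 29136, 31454 and 30831 CPM, so that the sum was still higher with 6 to 8 than with 3 to 5 genes. After each cell had been thinned to 2000 UMIs, WT NOD gave 21207, 23145, 30243, 32536 and 31205 CPM, and the other library 20450, 21482, 27667, 30000 and 29718 CPM. In CD4 T-gated cells the full-depth sum was higher at each further step, at 28980, 29816 and 30899 CPM from 3 to 5 genes on in WT NOD and at 26475, 28227 and 28931 CPM in the other library.

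**Figure D2:**
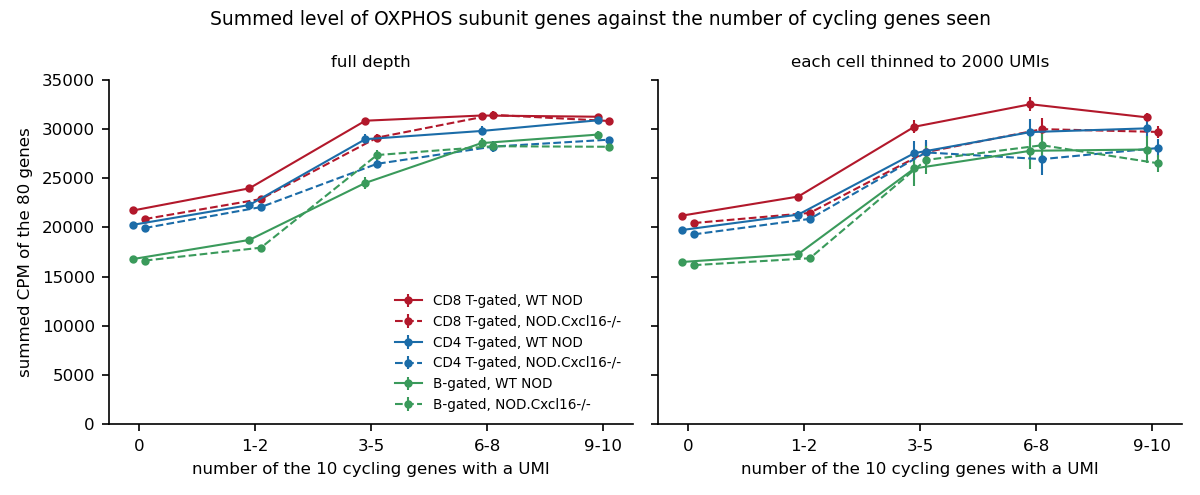
Summed CPM of the 80 genes (y axis) against how many of the 10 cycling genes had a UMI in the cell (x axis), at full depth (left) and with cells thinned to 2000 UMIs (right; the number of cycling genes was set at full depth), for 3 gated classes and both libraries with 95% Poisson intervals. In every line the step from 1 or 2 genes to 3 to 5 genes is the steepest.

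Complex I genes were spread from clearly higher to slightly lower. Levels of different genes are not compared, since how this 3' assay captures each gene was not tested. Ndufc1, a membrane-arm accessory subunit (chromosome 3), was at 265 CPM in cycling and 142 CPM in non-cycling WT NOD CD8 T-gated cells (log2 ratio 0.90), and at 258 against 121 CPM (1.09) in the other library. Ndufb8, another membrane-arm subunit, was at 348 against 176 CPM (0.98) and 357 against 192 CPM (0.89). Of the catalytic core subunits, Ndufv1, which carries the NADH site, was at 73.4 against 44.2 CPM (0.72) and 72.4 against 39.5 CPM (0.86). The core subunits therefore differed among themselves: Ndufv2 had log2 ratios of 0.67 and 0.77, Ndufs8 0.53 and 0.80, Ndufs7 0.50 and 0.58, and Ndufs1 0.32 and 0.51, while Ndufs3, a subunit of the matrix arm, stood near level at 126 against 107 CPM (0.22) and 125 against 106 CPM (0.24). Ndufa6, an accessory subunit, was lower in cycling cells, at 162 against 202 CPM (-0.32) and 169 against 184 CPM (-0.12). Ndufab1, outside the rule, was at 306 against 135 CPM (1.18) and 313 against 139 CPM (1.17), beyond every complex I member in this class.

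Complex II, the one complex here with no mitochondrially encoded subunit, split into its parts. Sdhd, a membrane anchor, was at 108 against 47.7 CPM (log2 ratio 1.17) in WT NOD CD8 T-gated cells and at 111 against 56.9 CPM (0.95) in the other library. Sdhb, the iron-sulphur subunit, was at 211 against 126 CPM (0.74) and 209 against 130 CPM (0.68), and Sdhc, the other anchor, had log2 ratios of 0.46 and 0.39. Sdha, the flavoprotein that oxidises succinate, was at 55.1 against 61.8 CPM (-0.16) and 59.1 against 64.2 CPM (-0.12). Over the 8 cycling comparisons of CD8 T, CD4 T, Treg and B gates in 2 libraries, Sdha was above 0 in 1, the Treg gate of the library labelled NOD.Cxcl16-/- at 0.08.

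In complex III, Uqcr11 was at 317 against 164 CPM (log2 ratio 0.95) in WT NOD CD8 T-gated cells and at 319 against 153 CPM (1.06) in the other library, and Uqcr10 was at 572 against 313 CPM (0.87) and 555 against 299 CPM (0.89). Both encode small subunits of the complex. The larger subunits differed less: Uqcrc1 and Uqcrc2, the core proteins, had log2 ratios of 0.44 and 0.56, and of 0.40 and 0.55, and Uqcrfs1, the Rieske iron-sulphur protein, 0.50 and 0.49. Uqcrh, the hinge protein that contacts cytochrome c1, went the other way, at 626 against 857 CPM (-0.45) and 643 against 824 CPM (-0.36). Its sign did not change in any of the 8 comparisons, whose range was -0.45 to -0.18.

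Complex IV held both ends of the distribution. Cox5a (chromosome 9, 57521274 to 57532426, + strand), a matrix-side subunit, was at 927 against 414 CPM (log2 ratio 1.16) in WT NOD CD8 T-gated cells and at 932 against 429 CPM (1.12) in the other library. Cox5b was at 934 against 515 CPM (0.86) and 886 against 475 CPM (0.90), Ndufa4 at 967 against 554 CPM (0.80) and 961 against 524 CPM (0.87), and Cox6a1 and Cox7a2, the isoforms found outside muscle, had log2 ratios of 0.81 and 0.78, and of 0.80 and 0.78. Cox4i1, the main form of subunit 4, was close to level, at 654 against 579 CPM (0.18) and 709 against 595 CPM (0.25). Cox7a2l (chromosome 17, 83501918 to 83517330, - strand), known as the supercomplex factor that joins complexes III and IV, was at 201 against 314 CPM (-0.64) and 189 against 332 CPM (-0.81). It was the single member called lower in these cells. Cox7a1, the muscle isoform, was at 5.28 against 1.63 CPM on 52 and 11 UMIs in WT NOD, and Cox7a1 did not pass the filter in the other library, with 26 and 11 UMIs.

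In complex V every one of the 17 genes had a log2 ratio above 0 in each of the 8 comparisons. Atp5b, the catalytic beta subunit, was at 480 against 285 CPM (0.75) in WT NOD CD8 T-gated cells and at 505 against 303 CPM (0.74) in the other library. Atp5a1, the alpha subunit, differed less, at 411 against 303 CPM (0.44) and 419 against 336 CPM (0.31). Atp5g1, Atp5g2 and Atp5g3, which encode one identical c subunit of the rotor ring from different genes, had log2 ratios of 0.69 and 0.65, of 0.51 and 0.64, and of 0.82 and 0.83. The genes nearest level were Atp5l (0.24 and 0.27) and Atp5h (0.28 and 0.28), subunits of the membrane sector and of the peripheral stalk.

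The same order was seen in CD4 T, Treg and B gates. In CD4 T-gated cells the sum was 30369 CPM in 125 cycling and 20274 CPM in 952 non-cycling cells of WT NOD, a ratio of 1.498, and 28336 CPM in 116 cells and 19944 CPM in 959 cells of the other library, a ratio of 1.42. There 38 of 77 genes were higher (17.1% of all genes were) and 0 lower (22.2%) in WT NOD, and 34 were higher (17.4%) and 1 lower (21.6%) in the other library. The single lower call was again Cox7a2l, at 197 against 280 CPM (-0.50) in WT NOD and 205 against 319 CPM (-0.63) in the library labelled NOD.Cxcl16-/-. Cox5a was highest in both, at 751 against 335 CPM (1.16) and 714 against 348 CPM (1.04). Without barcodes above 2 times the median UMIs of the class, 21 of 59 genes were higher on 30 cycling cells of WT NOD (20.5% of all genes) and 5 of 29 on 15 cycling cells of the other library (19.1%), where the members did not exceed the share of all genes. Between 4000 and 16000 UMIs 27 of 75 and 15 of 74 were, where 17.3% and 14.0% of all genes were.

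In Treg-gated cells, the regulatory class, the sum was 27749 CPM in 45 cycling and 21308 CPM in 195 non-cycling cells of WT NOD (ratio 1.30), and 28631 CPM in 64 cells and 21109 CPM in 271 cells of the other library (ratio 1.36). In WT NOD 17 of 77 genes were higher (14.4% of all genes were) and 0 lower (17.0%), and in the other library 29 were higher (15.9%) and 0 lower (23.0%). The highest log2 ratio was that of Atp5g3 (0.86) in WT NOD and of Ndufa12 (0.96) in the other library, followed closely by Uqcr10 at 0.80 and 0.95. Cox5a was at 0.70 and 0.89. The lowest was Ndufa6 (-0.39) in WT NOD and Cox7a2l (-0.40) in the other library, where Ndufa6 was at -0.02, and Cox7a2l was at -0.34 in WT NOD. The Treg gate thus gave fewer calls than the CD4 T gate on fewer cycling cells, and whether the classes differ was not tested.

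B-gated cells showed the widest gap of the 4 classes. The sum was 28434 CPM in 60 cycling cells and 16790 CPM in 1605 non-cycling cells of WT NOD, a ratio of 1.69 (1.68 to 1.71), and 28120 CPM in 127 cells and 16632 CPM in 1752 cells of the other library, a ratio of 1.69 (1.68 to 1.70). Of 77 genes, 57 were higher (25.1% of all genes were) and 0 lower (17.8%) in WT NOD, and 55 were higher (25.7%) and 0 lower (17.6%) in the other library. Uqcr11 was at 338 against 130 CPM (1.37) and 340 against 119 CPM (1.503), Ndufc2 at 238 against 90.7 CPM (1.38) and 242 against 94.2 CPM (1.35), and Cox5a at 788 against 292 CPM (1.43) and 797 against 334 CPM (1.254). The 4 genes below level in each library were Cox7a2l (-0.34 and -0.20), Uqcrh (-0.28 and -0.18), Sdha (-0.17 and -0.28) and Ndufa6 (-0.14 and -0.08). Cycling B-gated cells were few and deep, with median totals of 25980 and 23795 UMIs against 4308 and 4461.

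Over these 8 comparisons, 77 members passed the filter each time, and 68 of them (88.3%) had a log2 ratio above 0 in all 8, where 26.1% of the 5264 genes tested each time had, a count of members that was also 68 with a reduced denominator that leaves out immunoglobulin, T-cell receptor, mitochondrial, ribosomal and haemoglobin genes. Called higher in all 8 were 9 genes: Ndufb2, Ndufb6 and Ndufc1 of complex I, Uqcr10 of complex III, Cox5a and Ndufa4 of complex IV, and Atp5g3, Atp5j and Atp5o of complex V. These are 11.7% of the members, beside 8.05% of all genes. In at least 6 comparisons 31 members were called higher (40.3%, beside 13.8% of all genes), and 16 were called higher in none (20.8%, beside 64.6%). Below 0 in all 8 were 3 members (3.9%, beside 26% of all genes), namely Cox7a2l (median -0.45), Uqcrh and Ndufa6. Ndufa6 had a median of -0.10 and was above 0 in 1 comparison with that denominator. Across the 77 genes the log2 ratios of the 2 libraries, which share no cells, had a Pearson correlation of 0.958 in CD8 T, 0.909 in CD4 T, 0.795 in Treg and 0.939 in B gates (Spearman 0.948, 0.887, 0.710 and 0.912). Within a library, the CD8 T and B gates, made of different cells, correlated at 0.895 and 0.854. These describe the pattern over genes, which are not independent replicates.

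**Figure D3:**
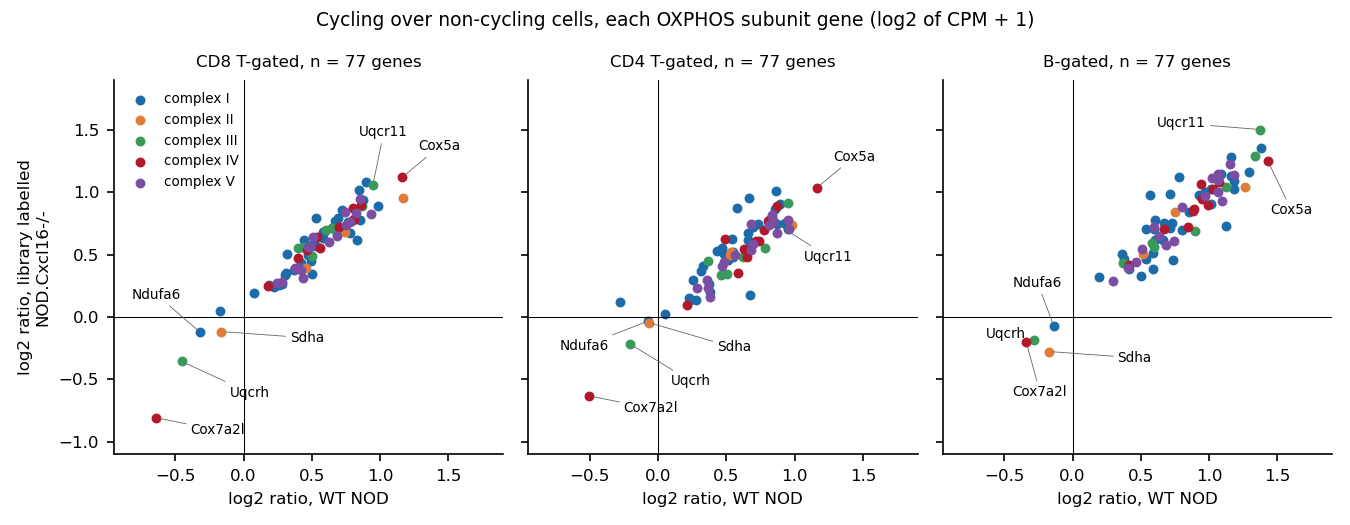
Log2 ratio of cycling over non-cycling cells for each of 77 subunit genes, in WT NOD (x axis) and in the library labelled NOD.Cxcl16-/- (y axis), one panel per gated class, coloured by complex. Points lie along the diagonal with Cox5a near the upper end (1.16 and 1.12 in CD8 T-gated cells), and Cox7a2l (-0.64 and -0.81), Uqcrh, Sdha and Ndufa6 set apart at the lower end.

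The other classes gave smaller or less certain gaps. Gamma-delta T-gated cells had 25 of 74 genes higher (22.5% of all genes were) on 14 cycling cells of WT NOD, and 23 of 71 (16.1%) on 13 cells of the other library, with Cox5a at 0.92 and 0.95 and Cox7a2l at -0.66 and -0.16. In the WT NOD cDC1 gate, 18 cycling cells were at 29949 CPM (29452 to 30453), while the 9 non-cycling cells, too few for gene calls, were at 24155 CPM (23400 to 24929). Those of the other library (17 cycling against 13 non-cycling cells) stood at a ratio of 1.01, with 2 of 69 genes higher (13.5%) and 1, Cox7a2l at 194 against 378 CPM (-0.96), lower (6.14%); with the reduced denominator the counts were 1 (12.3%) and 4 (8.95%). Cycling macrophage-gated cells of that library (18 against 71 cells) stood at 1.07, with 0 of 74 genes called in either direction (17.8% of all genes higher and 6.66% lower), and 1 higher (19.6%) with the reduced denominator.

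Genes that serve the same machine did not all follow the nuclear subunits. Of the 13 mitochondrially encoded subunits, 0 were called higher and 0 lower in CD8 T-gated cells of either library. Of all genes, 17.7% and 19.1% were higher and 16.1% and 19.0% lower there. The median log2 ratio of the 13 was -0.17 (WT NOD) and -0.10. Their sum was 10099 CPM in cycling and 10823 CPM in non-cycling WT NOD cells, and 10799 and 11368 CPM in the other library. In B-gated cells their median was -0.29 and -0.15. There mt-Nd6, a complex I subunit, was the 1 gene of the 13 called lower in each library (17.8% and 17.6% of all genes were). In Treg-gated cells 3 and 2 of the 13 were called higher, where 14.4% and 15.9% of all genes were. Their medians there were 0.17 and 0.09. In 3 of the 4 classes the median was thus above 0 for the nuclear and below 0 for the mitochondrially encoded subunits. How this 3' assay captures mitochondrial transcripts was not tested.

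The mitochondrial ribosomal proteins, which translate those 13 subunits, were higher together with the nuclear genes. In CD8 T-gated cells 49 of 78 and 48 of 77 were called higher (17.7% and 19.1% of all genes were). There 0 were lower (16.1% and 19.0%), and the medians were 0.67 and 0.64. In B-gated cells 58 of 76 and 62 of 77 were higher (25.1% and 25.7% of all genes), with medians of 0.88 and 0.92. Of 44 assembly factors, 8 and 12 were higher in CD8 T-gated cells, beside 17.7% and 19.1% of all genes, the highest being Ndufaf6, and 1 and 0 were lower, the lowest being Ttc19. Of 14 enzymes of the tricarboxylic acid cycle, 6 and 5 were higher (17.7% and 19.1% of all genes were), led by Fh1, the fumarase. In each library 1 was lower (16.1% and 19.0% of all genes), Suclg2. Among the carrier and 9 regulators, of which 9 passed the filter, 2 were higher in each library (17.7% and 19.1% of all genes). The highest was Cycs, cytochrome c, at 1.272 and 1.245. The lowest was Ppargc1b, a coactivator of respiratory genes, at -0.58 and -0.80. Ppargc1b was called lower in the second library, where 19.0% of all genes were.

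**Figure D4:**
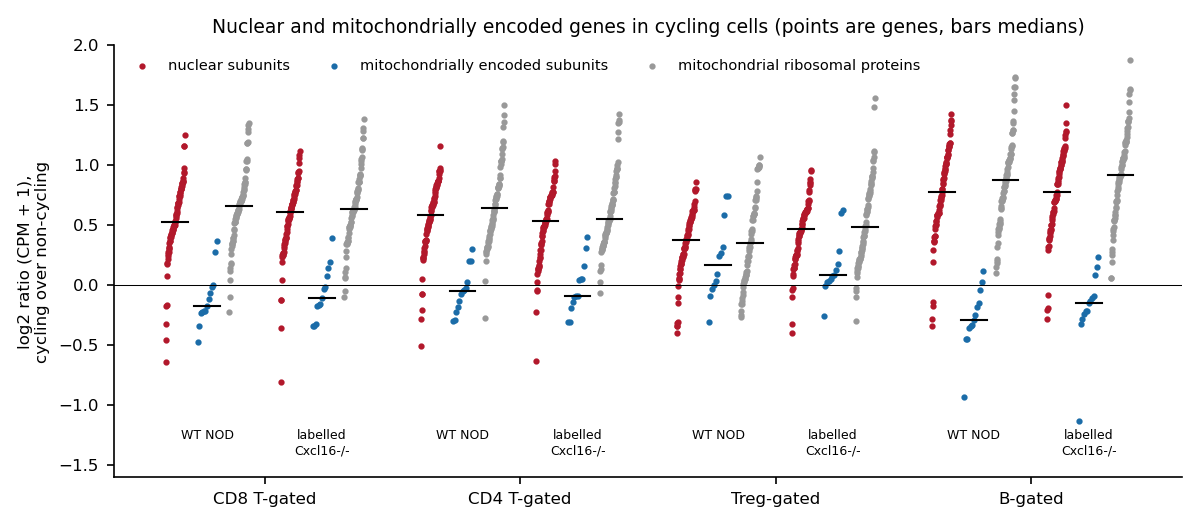
Log2 ratio of cycling over non-cycling cells (y axis) for each nuclear subunit, mitochondrially encoded subunit and mitochondrial ribosomal protein, by gated class and library; bars are medians. In CD8 T-gated cells the nuclear subunits have medians of 0.53 and 0.61 and the mitochondrially encoded ones -0.17 and -0.10.

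The second comparison sets naive-gated (a UMI of at least 2 of 5 naive T-cell markers, Ccr7, Lef1, Dapl1 and Igfbp4 among them) against other non-cycling CD8 T-gated cells (a UMI of none of the 5), 404 against 677 cells in WT NOD and 283 against 436 in the other library. The naive sum was lower, at 19326 against 23454 CPM in WT NOD (ratio 0.824) and 18575 against 22207 CPM in the other library (ratio 0.836). Of 77 genes, 0 were called higher (6.89% and 6.76% of all genes were) and 1 lower in each library (13.9% and 15.4%). In WT NOD that gene was Cox5a, at 304 against 497 CPM (-0.71), and in the other library Ndufb7 at 179 against 276 CPM (-0.62), where Cox5a was at 338 against 490 CPM (-0.53). Cox7a2l was again opposite to most members, higher in naive-gated cells at 345 against 277 CPM (0.32) and 375 against 309 CPM (0.28), as was Ndufa6 (0.19 and 0.28). At the same fold the lower calls numbered 0 to 5 under the other settings.

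Naive-gated cells spent more of their UMIs on cytosolic ribosomal proteins, 37.3% and 35.4% against 28.1% and 26.7%. With the reduced denominator the ratio of sums was 0.946 and 0.949, the median of all genes moved from -0.12 to 0.07 and from -0.15 to 0.03, and the calls were 0 higher (12.3% of all genes) and 0 lower (8.33%) in WT NOD, and 1 higher (Ndufs1, where 11.4% of all genes were) and 0 lower (9.42%) in the other library. In CD4 T-gated cells the ratio of sums was 0.884 and 0.892 with 0 genes called in either direction, where 6.66% and 5.65% of all genes were higher and 14.5% and 15.3% lower. Cycling CD8 T-gated cells were above the non-naive non-cycling cells too, at 31235 against 23454 CPM and 30723 against 22207 CPM.

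The third comparison sets non-cycling plasma cell-gated cells (43 and 60 cells) against non-cycling B-gated cells. The plasma cell-gated cells were deeper, with median totals of 21118 and 21839.5 UMIs against 4308 and 4461, and the part of depth was not tested. The plasma cell sum was 12000 against 16790 CPM (ratio 0.715) in WT NOD and 11694 against 16632 CPM (ratio 0.703) in the other library. In the plasma cell gate 54.8% and 54.6% of UMIs came from immunoglobulin and T-cell receptor genes, and most other genes took a smaller share: 77.1% and 79.4% of all genes were called lower, with medians of -1.497 and -1.53, and 7.61% and 6.57% were called higher. Against this background 32 and 39 of 76 subunit genes were called lower and 3 and 1 higher, with medians of -0.47 and -0.60. With the reduced denominator the sums reversed, to ratios of 1.30 and 1.31, with 21 and 20 members higher (18.6% and 17.1% of all genes) and 4 and 2 lower (49.4% and 50%), and the median of all genes moved to -0.56 and -0.58.

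Among single genes, the highest member in WT NOD was Cox6a2 (log2 ratio 4.39), described below. In the other library the highest was Ndufa1. Ndufa1 and Sdha stood apart under both denominators in both libraries. Ndufa1, the X-linked membrane-arm subunit of complex I (chromosome X, 37187588 to 37191163, - strand), was at 559 against 164 CPM (log2 ratio 1.76) and 465 against 151 CPM (1.61), and at 2.63 and 2.51 with the reduced denominator. Sdha was at 13.4 against 63.0 CPM on 12 and 459 UMIs (-2.15), and at 11.7 against 71.3 CPM on 14 and 618 UMIs (-2.50), and at -1.34 and -1.67 with the reduced denominator. Cox7a2l was at 80.7 against 279 CPM (-1.78) and 75.5 against 297 CPM (-1.96), and Uqcrh at 235 against 676 CPM (-1.52) and 262 against 658 CPM (-1.32). The Uqcrh values lay near the medians of all genes in this comparison, -1.497 and -1.53. Ndufs1, the large iron-sulphur subunit, was at 5.03 against 28.6 CPM (-2.29) in the library labelled NOD.Cxcl16-/-, on 6 UMIs in the plasma cell gate. Sdha and Cox7a2l were thus below the median of all genes in this comparison, and were among the genes not higher in cycling lymphocytes.

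The UMI shares of the 3 genes of the ATP synthase c subunit differed between classes. In plasma cell-gated cells Atp5g1 was at 283 against 226 CPM in B-gated cells (log2 ratio 0.33) and 241 against 182 CPM (0.40), while Atp5g2 was at 280 against 686 CPM (-1.29) and 279 against 616 CPM (-1.14). Atp5g1 made up 41.3% and 37.7% of the UMIs of the 3 genes in non-cycling plasma cell-gated cells, and 20.5% and 18.8% in non-cycling B-gated cells. Over all states the plasma cell gate stood at 38.8% (exact interval 36.9 to 40.8) and 35.5% (33.9 to 37.2), and the other classes ranged from 13.9% to 28.1%. This share needs no denominator outside the 3 genes.

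Cycling plasma cell-gated cells (19 and 20 cells) summed to 23453 CPM against 12000 CPM, and to 21339 against 11694 CPM. There 60 of 74 and 65 of 75 genes were called higher, beside 77.0% and 65.2% of all genes, and with the reduced denominator 18 and 13, beside 36.3% and 29.4%. The share of members called was thus above that of all genes with the full denominator and below it with the reduced one. Ndufa1 was the lowest of all, at 445 against 559 CPM (-0.33) and 456 against 465 CPM (-0.03), while Uqcr10 was among the highest, at 1.84 and 1.54. The highest in WT NOD was Ndufa10, at 1.89 on 59 and 20 UMIs.

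The muscle isoform Cox6a2 (chromosome 7, 128205435 to 128206387, - strand) was concentrated in plasmacytoid DC-gated cells. It had 585 UMIs there in WT NOD, 1135 CPM (1045 to 1231), and 430 UMIs in the other library, 1052 CPM (955 to 1156), and was seen in 89.3% of 56 and 84.2% of 38 cells. Cox6a2 was next highest in plasma cell-gated cells, at 40.5 and 23.7 CPM, and at 3.28 and 0.997 CPM in B-gated cells, where 0.691% and 0.536% of cells had a UMI. Median totals were 8115.5 and 8712.5 UMIs in the plasmacytoid DC gate and 4423 and 4663 in the B gate. After thinning to 2000 UMIs, 73.6% of 53 and 75.7% of 37 plasmacytoid DC-gated cells still had a Cox6a2 UMI, against 0.172% and 0.0936% of B-gated cells. Cox6a2 was not among the markers of the gate.

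Its partner Cox6a1, the form found in most tissues, was at a usual level in the same cells: in non-cycling plasmacytoid DC-gated cells Cox6a1 was at 164 CPM against 120 CPM in B-gated cells (log2 ratio 0.46), and 149 against 120 CPM (0.30) in the other library. Cox6b2, the testis form of subunit 6B, was highest in cDC2-gated cells at 13.5 CPM on 11 UMIs and 17.1 CPM on 24 UMIs, seen in 15.2% and 17.1% of cells, and at 1.59 and 1.86 CPM in B-gated cells. After thinning to 2000 UMIs, 4.84% of 62 and 0.917% of 109 cDC2-gated cells had a Cox6b2 UMI, with intervals from 1.01% to 13.5% and from 0.0232% to 5.01%. Cox7a1 was at 4.04 and 3.22 CPM in CD8 T-gated cells.

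**Figure D5:**
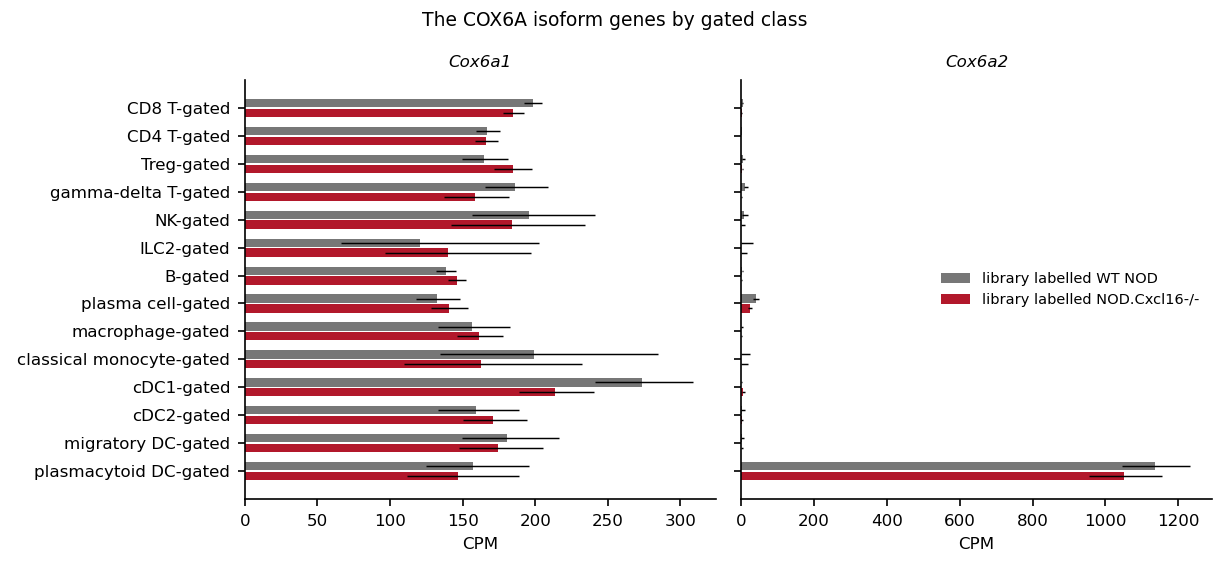
CPM of Cox6a1 (left) and Cox6a2 (right) in each gated class over all states, with 95% Poisson intervals, for both libraries; the x axes differ. Cox6a2 reaches 1135 and 1052 CPM in the plasmacytoid DC gate and is near 0 in most others, while Cox6a1 is present in every class.

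Apart from Cox6a2, non-cycling plasmacytoid DC-gated cells (50 and 29 cells) carried more of the set than B-gated cells, with a ratio of the sums without Cox6a2 of 1.45 and 1.41, or 1.20 and 1.18 with the reduced denominator. Of the other 74 and 68 genes, 33 and 29 were called higher (33.0% and 34.0% of all genes) and 0 lower (15.1% and 16.4%). With the reduced denominator 12 and 8 were higher, beside 22.7% and 24.9% of all genes, and the median of all genes moved from 0.23 to -0.03 and from 0.25 to near 0. Uqcr11 was at 360 against 130 CPM (1.46) and 358 against 119 CPM (1.57), Ndufs5 at 1.38 and 1.43, and Sdhb at 1.20 and 1.252. Uqcrh (-0.29 and -0.16) was once more on the other side.

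Macrophage-gated cells (79 and 166) stood above migratory DC-gated cells (53 and 63) at similar depth, 12695 and 12870 against 12449 and 11856 median UMIs. The sums were 25457 against 20303 CPM (ratio 1.254) and 22242 against 19195 CPM (ratio 1.16), with 25 and 15 of 76 genes higher (28.5% and 25.5% of all genes) and 0 lower (22.7% and 21.3%). The highest member was Ndufa5 (1.28) in WT NOD and Ndufs8 in the other library. Ndufs8, a core subunit of complex I, was at 151 against 75.3 CPM (0.99) and 103 against 37.0 CPM (1.45), Ndufv1 at 1.14 and 1.18, and Ndufs7 at 1.14 and 1.05. Ndufc2 was at 270 against 113 CPM (1.251) and 263 against 118 CPM (1.15), and Atp5g1 at 1.11 and 1.17. Ndufv2, the partner of Ndufv1 in the NADH-oxidising module, was on the other side at -0.42 and -0.39, as was Ndufb4 at -0.36 and -0.25. The count of higher calls in both libraries is near the share of all genes, so it says nothing particular about the set.

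B-gated against CD4 T-gated non-cycling cells differed in the sum by ratios of 0.828 and 0.834, with 0 genes higher (11.6% and 13.0% of all genes) and 5 and 3 lower (22.6% and 21.8%), among them Ndufv3 (-0.60 and -0.78) and Ndufa5 (-0.73 and -0.61). With the reduced denominator 1 gene was lower in each library (19.8% and 19.9% of all genes).

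Between the libraries the set differed little within the non-cycling CD8 T, CD4 T and B gates, and more in the macrophage gate. In macrophage-gated cells the median log2 ratio was -0.20 over the members and -0.04 over all genes. The ratio of sums, the library labelled NOD.Cxcl16-/- over WT NOD, was 0.960 in non-cycling CD8 T-gated, 0.984 in CD4 T-gated and 0.991 in B-gated cells, and 0.874 in macrophage-gated cells. In those 4 classes 0 members were called higher or lower, where 2.48% and 2.09% of all genes in CD8 T-gated, 1.97% and 2.62% in CD4 T-gated, 1.80% and 2.21% in B-gated and 5.70% and 5.96% in macrophage-gated cells were. In plasma cell-gated cells 1 member was lower (6.66% of all genes) and 0 higher (3.09%), namely Cox6a2 at 23.7 against 40.5 CPM (-0.75). At the same fold the macrophage count reached up to 8 under other settings, which was with cells of 4000 to 16000 UMIs only.

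Of the 77 members tested in 7 comparisons of the libraries (cycling and non-cycling CD8 T, CD4 T and B gates, and the macrophage gate), 13 were lower in all (16.9%, where 5.64% of 4732 genes were) and 1, Atp5a1, was higher in all (1.30%, where 8.54% were), by 0.03 to 0.18. In plasma cell-gated cells, Atp5a1 was at -0.18. The lowest median among the 13 was that of Atp5g1, whose log2 ratios ranged from -0.44 to -0.19, with 234 against 266 CPM in CD8 T-gated, 182 against 226 CPM in B-gated and 289 against 391 CPM in macrophage-gated cells. The macrophage gate also had Ndufs4 at 106 against 157 CPM (-0.57), Ndufb3 at 127 against 188 CPM (-0.57) and Sdhc at 34.2 against 51.2 CPM (-0.57). Ins2, an islet hormone transcript, was found in 9.24% of WT NOD barcodes and 36.9% of those of the other library, and the part of free islet RNA in these small differences was not tested. Each library is 1 sample, so library and label cannot be told apart.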

How the data were processed

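The deposited files hold raw UMI counts per gene and barcode for 2 libraries, made by the authors with Cell Ranger 7.0.1 for build mm10, per the submitters' processing notes. Whether intronic reads were counted is not given in the sources used here. Barcodes with fewer than 500 genes or over 10% mitochondrial UMIs were left out, which kept 12252 and 10214, at medians of 4269 and 5189 UMIs. Classes were gated on fixed marker genes, and barcodes that passed several gates (1430 and 1018) or none (985 and 809), or with over 2% endocrine UMIs (39 and 50), were left out. T-gated barcodes with no T subclass (2662 and 1810) were not compared, so that 58.2% and 63.9% of kept barcodes are in named classes. No doublet caller was run. The gate thresholds were set after seeing how many cells each gate took.

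Counts of each gene were added up per class, library and state and scaled to 1000000 (CPM), with exact Poisson intervals for CPM, exact Clopper-Pearson intervals for shares and conditional binomial intervals for ratios, all at 95%. Pools of at least 10 cells were compared. A gene was tested where its mean CPM in the 2 pools gave at least 20 UMIs in the smaller pool, and called at 1.5-fold. The script was tested on simulated data. The members and lists were chosen with earlier results of these data known.

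Genes were named by a written rule: isoform sets, catalytic and core subunits, in each comparison the 3 members with the highest and the 3 with the lowest log2 ratio, and members past the fold against most others. Other genes named beyond this were chosen after their values were seen. A few single-gene details are not reported here. Gene coordinates are from GENCODE M21 (GRCm38), matched by gene ID for all 80 members. Python 3.11.15, numpy 2.4.6, scipy 1.17.1 and pandas 2.3.3 were used. The reduced denominator, other size factors, filters, folds and depth limits were tried as alternatives.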

Additional observations from a re-analysis of the deposited data

Results flagged for a closer look

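Among the matching symbols under the minimum of 50 UMIs, 2 gave a signal in single classes above the 3 counts that an observed 0 allows. Cox4i2, the oxygen-responsive form of complex IV subunit 4, had 7 UMIs in macrophage-gated cells of the WT NOD library and 5 in those of the library labelled NOD.Cxcl16-/-. Ndufa4l2, a homologue of Ndufa4, had 12 UMIs in plasma cell-gated cells of the WT NOD library and 4 in those of the other, and 0 in each of the other 13 gated classes.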

How the results depend on the processing

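Results were recomputed under 11 other settings and 1 more chosen after seeing the data. Of 154 values of the main results, mostly counts of called members, 113 stayed close to the value reported (counts within 1.5 times). The other 41 moved. The sums and single genes were among 525 further values, of which 396 stayed close, 124 moved and 5 reversed. The summed ratio of cycling over non-cycling CD8 T-gated and CD4 T-gated cells was above 0 in all 48 values (0.14 to 0.66 on the log2 scale), and so was that of Cox5a (0.46 to 1.24). Cox7a2l was below 0 in all 47 and Uqcrh in all 48, while Ndufa6 was above 0 in 8 of 47. Values below are given for WT NOD and then for the other library where both moved, and the cause was not tested except where noted.

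With the denominator that leaves out immunoglobulin, T-cell receptor, mitochondrial, ribosomal and haemoglobin genes, 4 and 2 members were lower in plasma cell-gated against B-gated cells and 0 and 0 in naive-gated cells, and the plasma cell sum reversed to 0.38 and 0.39 on the log2 scale. With median-of-ratios size factors the plasma counts were 3 and 2, the plasma sum reversed to 0.60 and 0.70, and the naive count of the second library was 0. With the mean of per-cell CPM, 23 members were lower in plasma cell-gated cells of the second library and 2 in WT NOD naive-gated cells, and between libraries 1 was called in CD8 T-gated and 3 in macrophage-gated cells. With cells thinned to 2000 UMIs, which leaves fewer genes to test, the plasma counts were 15 and 11, the naive counts 4 and 5, and the macrophage count between libraries 7. With at least 1000 genes per cell that macrophage count was 2.

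Leaving out barcodes above 2 times the median UMIs, which removes most cycling cells, gave 16 higher members in CD8 T-gated cells of the second library, 21 and 5 in CD4 T-gated cells, 4 and 3 lower in naive-gated cells and 1 between macrophage-gated cells, and Ndufa6 in WT NOD CD8 T-gated cells reversed to 0.095. With 5 expected UMIs, 2 members were lower in WT NOD naive-gated cells, and 1 was called between the libraries in each of CD8 T-gated, B-gated and macrophage-gated cells. With a fold of 5/4, the higher counts were 63 and 63 (CD8 T) and 63 and 58 (CD4 T), the lower counts 51 (WT NOD plasma) and 28 and 27 (naive), and between libraries 1 (CD8 T), 2 (CD4 T) and 14 (macrophage). Within 4000 to 16000 UMIs, chosen after seeing the data, the second library gave 23 (CD8 T) and 15 (CD4 T) higher and 3 lower (naive), and 8 were called between macrophage-gated cells.

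No paired analysis was possible because each group is 1 library and the labels carry no replicate numbers. Leaving out a replicate was not possible for the same reason. Gates of under 100 cells limit what can be seen in rare classes, and genes with few UMIs were not tested there.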
